A study of Mus musculus with 16 samples.

Results

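The subject is 7 transcripts of the 2-cell stage measured in mouse 8-cell embryos: Zscan4c, Zscan4d, Zscan4f, Tcstv1, Tcstv3, Zfp352 and B020004J07Rik. They were found by gene name among the 43437 genes of the expression table, and each name matched a single gene. A gene was tested where 4 or more of the 16 libraries reached 1 FPKM, which held for 11422 genes, among them all 7 members. FPKM counts the fragments read from a gene, scaled by the length of its transcript and by the fragments mapped in the library. Zscan4c reached that level in 4 libraries, Zscan4d in 5, Zscan4f in 8, Tcstv1 in 11, Zfp352 in 12, B020004J07Rik in 15 and Tcstv3 in 16.

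In the mouse, transcription from the embryo's own genome starts in earnest at the 2-cell stage, with a short burst of genes that are soon silenced again. The factor Dux, which depends on Dppa2 and Dppa4, switches many of them on, and chromatin repressors such as Kdm1a, Trim28 and the PRC1.6 complex keep them off later. The same genes flicker on in a small fraction of mouse embryonic stem cells, called 2-cell-like cells. Zscan4 proteins carry a SCAN domain and zinc fingers and are known for their part in telomere maintenance. Tcstv1 and Tcstv3 belong to a family of genes transcribed in 2-cell embryos and are linked to telomere length in mouse embryonic stem cells. Zfp352 encodes a zinc finger protein of the early mouse embryo. B020004J07Rik, named Pramel17 by RefSeq, belongs to the PRAME-like family, whose members carry leucine-rich repeats.

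Zygotes had been injected with double-stranded RNA (dsRNA), a trigger of RNA interference, that targets Tfap2c (Tfap2cKD), Tead4 (Tead4KD), both together (DoubleKD) or GFP (dsGFP, the control), with 4 libraries a group. Tfap2c encodes an AP-2 transcription factor and Tead4 a TEAD factor. Every library held 10 whole embryos, about 80 cells, cultured in KSOM medium to the 8-cell stage and freed of the zona pellucida. Within a group, libraries B1 and B2 are of cross B, with C57BL/6J×DBA/2J mothers, and A1 and A2 are of cross A, with C57BL/6J×CBA/J mothers. Fathers are given as C57BL/6J×DBA hybrids in both crosses, with a DBA number in the label that differs between libraries of a cross. Whether libraries of a group came from separate matings or cultures is not stated in the labels, so the p values here cover only the variation among these pools of embryos, which may be technical. A pool with more cells carrying a transcript and a pool with more of it in each cell cannot be told apart.

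The targeted genes were lower in the groups labelled for them. Tfap2c averaged 15.8 ± 1.65 FPKM in Tfap2cKD and 16.2 ± 0.342 in DoubleKD embryos, against 35.7 ± 6.60 in dsGFP embryos (SD, n = 4 each). Tead4 averaged 7.66 ± 2.49 FPKM in Tead4KD and 9.49 ± 3.94 in DoubleKD embryos, against 48.6 ± 7.00 in dsGFP embryos (SD, n = 4 each). Each of these groups lay below dsGFP without overlap (exact permutation p = 0.0286, the smallest possible), and Tead4 was also lower in Tfap2cKD embryos, at 28.3 ± 7.77 FPKM. All 10 markers of the 8-cell embryo were present, with Dppa3 at 5509 to 8679 FPKM. Of 10 cumulus cell markers, Ptx3, Cyp11a1, Hsd3b1, Inhba and Foxl2 were at 0 in every library and Amhr2 alone exceeded 1 FPKM, with a highest value of 29.4. Sperm markers stayed below 1 FPKM. The blood genes Hbb-bs, Hbb-bt and Ptprc were at 0, while Hba-a1 ran from 6.41 to 50.6 FPKM. Read totals were not used here and the absolute depth is unknown. Relative depth, estimated from the spacing of low values, ran from 0.874 to 1.12 of the mean. The library DoubleKD B1 stands apart: it was the highest of the 16 for 6 of the 7 members, each time by more than 2-fold over the next library on FPKM + 1. Results that rest on it are given with and without it.

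The Zscan4 genes lie in a cluster on chromosome 7, on GRCm38.p6 (the assembly also called mm10): Zscan4c at chr7:11005745-11010547, Zscan4d at chr7:11161643-11166148 and Zscan4f at chr7:11397915-11402318. The 250 bases before their annotated starts, from RefSeq, are shown because the 3 genes were high together and because their near identity limits how reads can be assigned. They cover chr7:11005495-11005744 (plus strand), chr7:11166149-11166398 (minus strand) and chr7:11397665-11397914 (plus strand). Capitals mark TATAAA and, in Zscan4d, GCCNNNGGC, the core that AP-2 factors are known to bind, which there abuts TATAAA.
Zscan4c: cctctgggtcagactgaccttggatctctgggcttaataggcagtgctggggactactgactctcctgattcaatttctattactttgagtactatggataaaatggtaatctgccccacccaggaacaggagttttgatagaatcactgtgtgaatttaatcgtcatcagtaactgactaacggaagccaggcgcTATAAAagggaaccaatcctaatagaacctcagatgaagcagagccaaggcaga
Zscan4d: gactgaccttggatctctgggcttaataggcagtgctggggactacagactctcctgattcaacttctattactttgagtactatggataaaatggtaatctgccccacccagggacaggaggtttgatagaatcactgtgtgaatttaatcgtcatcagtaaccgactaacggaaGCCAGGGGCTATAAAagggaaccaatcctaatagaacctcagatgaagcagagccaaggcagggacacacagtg
Zscan4f: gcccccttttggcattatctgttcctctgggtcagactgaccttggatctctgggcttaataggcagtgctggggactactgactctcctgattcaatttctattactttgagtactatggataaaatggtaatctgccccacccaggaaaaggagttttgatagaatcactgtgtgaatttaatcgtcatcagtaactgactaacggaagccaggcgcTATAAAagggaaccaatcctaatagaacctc
Over the aligned bases these windows were 99.6% identical between Zscan4c and Zscan4f, 97.1% between Zscan4c and Zscan4d and 96.8% between Zscan4d and Zscan4f. The annotated starts are offset, so TATAAA begins at position -54 in Zscan4c, -65 in Zscan4d and -31 in Zscan4f, counted from the annotated start. TATAAA was present on either strand in 12.4% of 32851 such windows of all genes. GCCNNNGGC, found in Zscan4d at -74 to -66, was present in 13.7%. An exact match to an 11-base Dux motif was in none of the windows shown for Zscan4c, Zscan4d, Zscan4f, Zfp352 and B020004J07Rik. Of all windows, 0.0304% held one. Tcstv1 and Tcstv3 had no window to search. Partial matches and sequence beyond the 250 bases were not searched, so the absence of Dux sites is not shown. The coding sequences of Zscan4c and Zscan4f differed at 6 of 1521 bases, and that of Zscan4d differed from each at 35. Of all stretches of 50 bases in the annotated transcripts (GENCODE vM1), 78.7% in Zscan4c, 89.6% in Zscan4f and 47.2% in Zscan4d also occurred in another gene, chiefly in the Zscan4 family. Values of single Zscan4 genes are therefore uncertain, and their sum is given beside them.

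Zfp352, at chr4:90218820-90225687, and B020004J07Rik, at chr4:101834969-101844022 on the minus strand, share chromosome 4. Their windows, chr4:90218570-90218819 (plus strand) and chr4:101844023-101844272 (minus strand), are shown because these genes carried the changes past the threshold in the knockdowns. Capitals mark exact copies of GGACAACACAC in Zfp352 and GGAATG, a TEAD core, in B020004J07Rik.
Zfp352: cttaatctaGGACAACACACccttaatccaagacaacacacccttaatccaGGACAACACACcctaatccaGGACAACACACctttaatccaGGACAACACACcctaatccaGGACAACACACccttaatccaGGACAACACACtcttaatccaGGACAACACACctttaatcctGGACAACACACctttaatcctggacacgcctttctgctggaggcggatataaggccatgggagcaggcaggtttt
B020004J07Rik: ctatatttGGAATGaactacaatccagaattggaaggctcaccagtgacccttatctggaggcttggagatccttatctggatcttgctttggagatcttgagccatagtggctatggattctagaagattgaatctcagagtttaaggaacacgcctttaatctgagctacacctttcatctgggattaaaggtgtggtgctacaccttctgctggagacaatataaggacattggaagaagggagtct
The 11-base repeat was picked as the most frequent 11-base stretch of the Zfp352 window, where it occurred 8 times. Its presence there was thus fixed by the choice. Of the 32851 windows 0.00304% held it, that is, this one alone. GGAATG stood at -242 to -237 in the B020004J07Rik window, and 12.6% of all windows held it on either strand. No GCCNNNGGC was found in either window. Of the 50-base stretches, 8.48% in Zfp352 and 10.7% in B020004J07Rik recurred in other genes. Tcstv1 (chr13:119893387-119894785) and Tcstv3 (chr13:120316862-120318261) are given by location only.

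**Figure D1:**
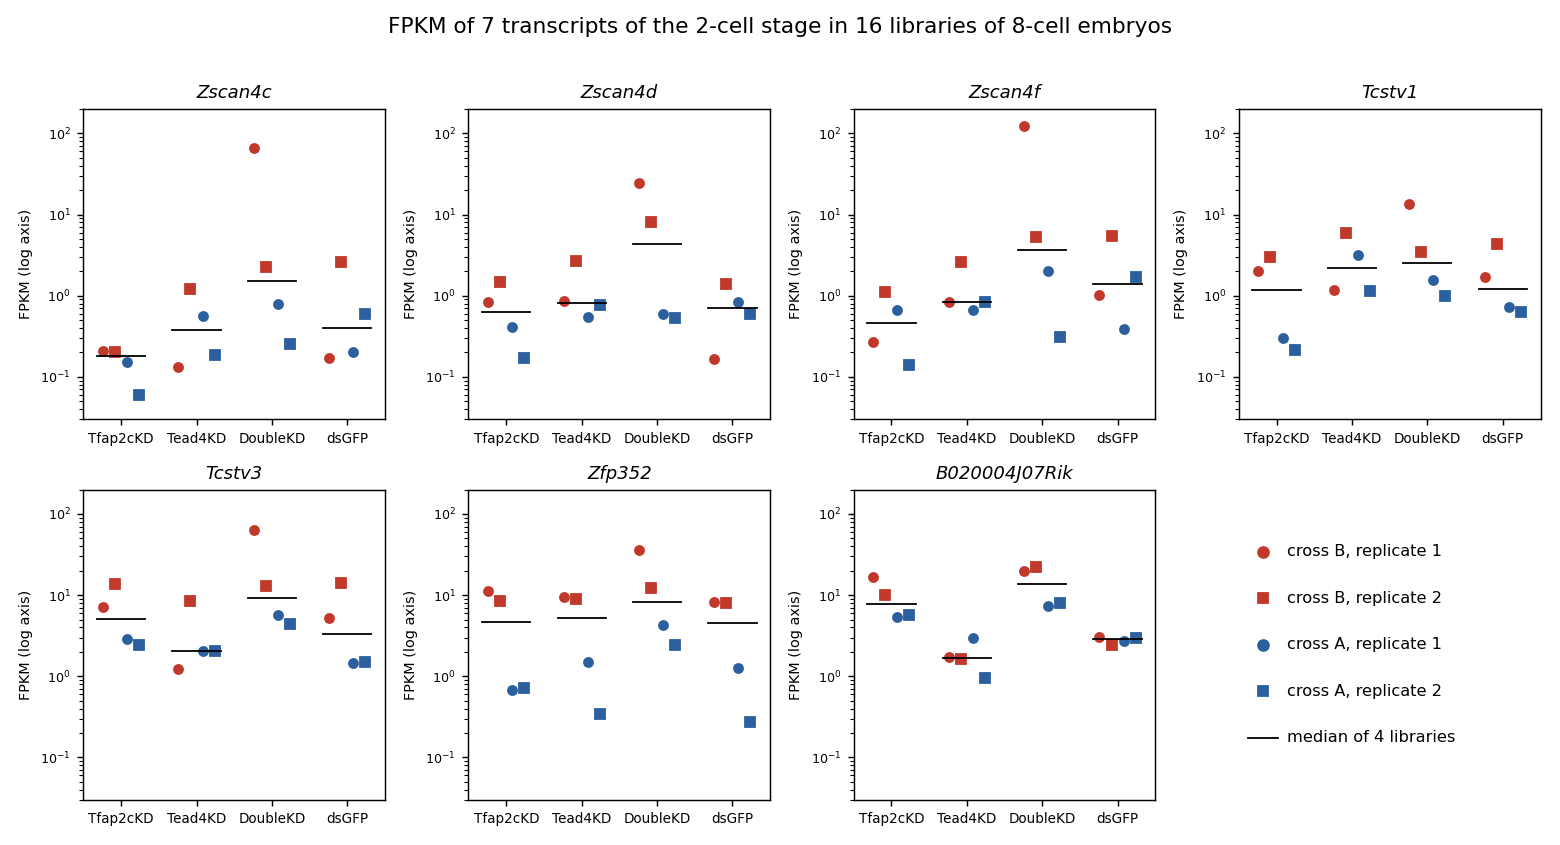
FPKM of each member in all 16 libraries on a log axis, by injection group, with cross B in red, cross A in blue and a black line at the median of each group. DoubleKD B1 is the highest point for every gene but B020004J07Rik, and red points lie above all blue points for Zfp352.

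Most members were low in control embryos. In dsGFP embryos the medians of 4 libraries were 4.57 FPKM for Zfp352, 3.35 for Tcstv3, 2.85 for B020004J07Rik, 1.38 for Zscan4f, 1.21 for Tcstv1, 0.715 for Zscan4d and 0.402 for Zscan4c. Neighbours in this order overlapped in range. Zfp352 spanned 0.274 to 8.22 FPKM and Tcstv3 1.47 to 14.0 in the control group, while B020004J07Rik stayed between 2.42 and 3.01.

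Zscan4c, Zscan4d and Zscan4f did not pass the test in any knockdown against the control, and their highest values came from 1 library. Zscan4f, the most abundant of the 3 in that library, had 0.660, 0.141, 0.269 and 1.10 FPKM in Tfap2cKD embryos (A1, A2, B1 and B2, the order kept throughout). It had 0.658, 0.826, 0.843 and 2.63 FPKM in Tead4KD, and 2.00, 0.309, 124.8 and 5.24 in DoubleKD embryos, against 0.385, 1.72, 1.03 and 5.50 in dsGFP embryos. DoubleKD B1 is far above the rest, while no other DoubleKD library exceeds the highest control library.

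Zscan4c showed the same shape, with 0.787, 0.254, 67.0 and 2.28 FPKM in DoubleKD embryos, against 0.205, 0.599, 0.170 and 2.57 in dsGFP embryos. In Tfap2cKD embryos it had 0.153, 0.0599, 0.210 and 0.204 FPKM, and in Tead4KD embryos 0.566, 0.186, 0.133 and 1.20. Zscan4c in DoubleKD did not overlap Tfap2cKD, which is the 1 case without overlap among the 5 pairs of groups tested for these 3 genes. Its values in Tfap2cKD were near the floor, and the share of all genes without overlap was not counted. Nothing is therefore read from this case. The two-sided exact permutation p was 0.0286 for 4 against 4, the smallest possible, but limma's adjusted p for that pair was 0.415.

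For Zscan4d, the library DoubleKD B2 was raised too: it had 0.590, 0.535, 24.6 and 8.00 FPKM in DoubleKD embryos, against 0.837, 0.594, 0.165 and 1.38 in dsGFP embryos. Tfap2cKD embryos had 0.417, 0.169, 0.838 and 1.49 FPKM and Tead4KD embryos 0.544, 0.772, 0.865 and 2.69. Both cross B libraries of DoubleKD thus exceed all control libraries, and both of cross A lie inside the control range.

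Summed over the 3 genes, Zscan4 reached 216 FPKM in DoubleKD B1 and 15.5 in DoubleKD B2, and from 0.370 to 9.44 in the other 14 libraries. The shares of the sum differed between these high libraries: Zscan4d made up 11.4% in DoubleKD B1 and 51.5% in DoubleKD B2. Zscan4b and Zscan4e, near copies that are not among the 7, had 17.5 and 23.9 FPKM in DoubleKD B1, against at most 0.908 and 1.20 in the other libraries.

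**Figure D2:**
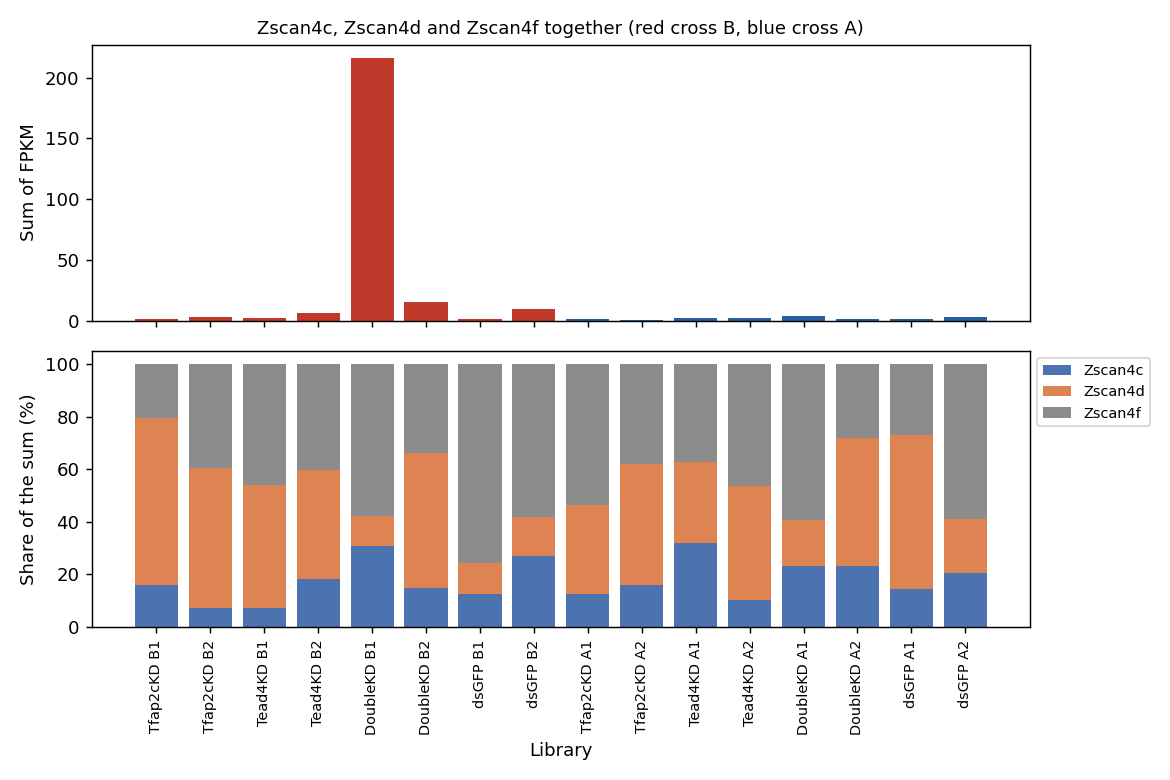
Upper panel, the sum of Zscan4c, Zscan4d and Zscan4f in FPKM in each library, cross B in red and cross A in blue. Lower panel, the percentage of that sum from each gene. DoubleKD B1 reaches 216 FPKM, of which Zscan4f and Zscan4c supply most, whereas Zscan4d supplies 51.5% of the 15.5 FPKM of DoubleKD B2.

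DoubleKD over dsGFP, the log2 difference was 1.49 ± 0.80 for Zscan4c, 1.53 ± 0.55 for Zscan4d and 1.49 ± 0.85 for Zscan4f (SE, limma), with adjusted p of 0.192, 0.0549 and 0.221. Without DoubleKD B1 it was 0.87 for Zscan4d (adjusted p = 0.168) and 0.26 for Zscan4f (adjusted p = 0.734). Zscan4c then reached 1 FPKM in fewer than 4 libraries and was not tested. Without DoubleKD A1, DoubleKD A2 or dsGFP A1, the difference for Zscan4d passed, with log2 differences of 1.90, 1.92 and 1.78. Within cross B, Zscan4d rose in DoubleKD embryos by 3.19 ± 0.47 (adjusted p = 0.00127), where 8.34% of all genes tested were called higher, and within cross A the difference was -0.13 ± 0.47 (adjusted p = 0.890). Without DoubleKD B1, which leaves 1 DoubleKD library in cross B whose spread is taken from the other groups, the rise there was 2.43 (adjusted p = 0.0115). Zscan4d was tested through 5 libraries at 1 FPKM or more, all of cross B and among them DoubleKD B1 and B2. The filter thus has a part in its rise within cross B, and no difference between crosses is read from these values. The contrast between crosses, 3.32 ± 0.66, did not pass when tested itself (adjusted p = 0.118). It passed without DoubleKD B2 (4.07, adjusted p = 0.0169) and not without DoubleKD B1 (2.57, adjusted p = 0.202).

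The Tcstv genes did not pass in any knockdown over dsGFP, and both passed between the crosses. Tcstv3 had 2.88, 2.42, 7.22 and 13.8 FPKM in Tfap2cKD embryos, 2.06, 2.06, 1.21 and 8.55 in Tead4KD embryos and 5.62, 4.43, 63.4 and 12.9 in DoubleKD embryos, against 1.47, 1.51, 5.19 and 14.0 in dsGFP embryos. All groups overlap, and the highest 2 values outside DoubleKD B1 are dsGFP B2 and Tfap2cKD B2. Tcstv1 had 0.301, 0.212, 2.03 and 3.00 FPKM in Tfap2cKD embryos, 3.20, 1.13, 1.18 and 5.95 in Tead4KD embryos and 1.58, 0.979, 13.3 and 3.50 in DoubleKD embryos, against 0.728, 0.629, 1.69 and 4.40 in dsGFP embryos. Here too the groups overlap, with DoubleKD B1 and Tead4KD B2 on top.

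For Tcstv3, the difference of DoubleKD over dsGFP was 1.45 ± 0.51 (SE) and missed the threshold (limma adjusted p = 0.0507). It was 0.92 without DoubleKD B1 (adjusted p = 0.168), and passed without DoubleKD B2, Tead4KD B1 or dsGFP B2 (adjusted p of 0.0347, 0.0146 and 0.0359). Over Tead4KD it was higher in DoubleKD embryos by 1.84 ± 0.51 (adjusted p = 0.0170), which was lost without DoubleKD B1 (1.31, adjusted p = 0.0548) and without Tead4KD B1 (1.27, adjusted p = 0.0512). The exact permutation p for that pair was 0.0857. For Tcstv1 the difference of DoubleKD over dsGFP was 0.75 ± 0.43 (adjusted p = 0.217). In Tfap2cKD over dsGFP it was 0.37 ± 0.51 for Tcstv3 and -0.27 ± 0.43 for Tcstv1, neither of which passed.

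Zfp352 separated the crosses without overlap and rose in the double knockdown. It had 0.678, 0.727, 11.2 and 8.54 FPKM in Tfap2cKD embryos, 1.49, 0.339, 9.55 and 8.85 in Tead4KD embryos and 4.29, 2.44, 36.0 and 12.3 in DoubleKD embryos, against 1.25, 0.274, 8.22 and 7.90 in dsGFP embryos. Every cross B library is above every cross A library, and within each cross both DoubleKD libraries are above the other 6. How many of all genes separate in these ways was not counted, so nothing is read from the separation itself.

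Zfp352 was higher in DoubleKD than in dsGFP embryos by 1.31 ± 0.28 on the log2 scale (95% interval 0.71 to 1.92, adjusted p = 0.00340), and higher than in Tead4KD embryos by 1.17 ± 0.28 (adjusted p = 0.00731). Without DoubleKD B1 these were 1.06 (adjusted p = 0.0122) and 0.92 (adjusted p = 0.0263). With no term for cross in the fit, neither passed (adjusted p of 0.390 and 0.466). The exact permutation test, which has no term for cross either, gave p of 0.286 and 0.314. Within cross B the difference over dsGFP was 1.29 ± 0.44 and within cross A 1.33 ± 0.44, and with 2 libraries a side neither passed alone (adjusted p of 0.0643 and 0.0576). Without DoubleKD B1 the difference within cross B was 0.56 (adjusted p = 0.472), and that within cross A passed (adjusted p = 0.0183). Over Tfap2cKD it was 1.18 ± 0.28 (adjusted p = 0.136). The single knockdowns differed from the control by 0.13 ± 0.28 in Tfap2cKD and 0.14 ± 0.28 in Tead4KD embryos.

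B020004J07Rik rose where Tfap2c dsRNA was injected. It had 5.33, 5.76, 16.9 and 9.94 FPKM in Tfap2cKD embryos, 2.96, 0.956, 1.73 and 1.64 in Tead4KD embryos and 7.41, 8.05, 19.6 and 22.4 in DoubleKD embryos, against 2.74, 2.96, 3.01 and 2.42 in dsGFP embryos. All 8 libraries with Tfap2c dsRNA are above all 8 without it. The share of all genes separated in this way was not counted, so nothing is read from the separation itself. B020004J07Rik is the 1 member whose highest library was DoubleKD B2 and not DoubleKD B1.

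B020004J07Rik was higher in Tfap2cKD than in dsGFP embryos by 1.34 ± 0.30 (95% interval 0.70 to 1.98, adjusted p = 0.00391), in DoubleKD than in dsGFP embryos by 1.87 ± 0.30 (1.23 to 2.52, adjusted p = 0.000420), and in DoubleKD than in Tead4KD embryos by 2.34 ± 0.30 (adjusted p = 6.54e-05). The exact permutation p was 0.0286 for each of these, the smallest that 4 against 4 allow. Each passed in all alternatives tried, with adjusted p of at most 0.0184, 0.00299 and 0.00164. In Tead4KD over dsGFP the difference was -0.47 ± 0.30 (adjusted p = 0.426), and in DoubleKD over Tfap2cKD 0.53 ± 0.30 (adjusted p = 0.624).

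Within cross B the rise of B020004J07Rik over dsGFP was 1.92 ± 0.29 in Tfap2cKD and 2.57 ± 0.29 in DoubleKD embryos, where 12.9% and 8.34% of all genes were called higher. Within cross A, where 9.67% and 9.74% were, it was 1.18 ± 0.29 in DoubleKD embryos (adjusted p = 0.0161), and the Tfap2cKD difference of 0.77 ± 0.29 did not pass (adjusted p = 0.0968). The difference between crosses in these responses was 1.15 ± 0.41 for Tfap2cKD (adjusted p = 0.203) and 1.39 ± 0.41 for DoubleKD (adjusted p = 0.257), so it was not shown.

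Counted over the 7 members and both directions, 1 passed in Tfap2cKD over dsGFP, beside 29.6% of all genes tested, and 2 passed in DoubleKD over dsGFP, beside 25.1%. All were rises. In Tead4KD over dsGFP 0 passed with limma, beside 6.13% of all genes, and 0 had an unadjusted p under 0.05 or an exact p under 0.05. DoubleKD over Tead4KD gave 3, beside 23.7%. DoubleKD over Tfap2cKD gave 0, beside 0.14% of all genes, with 5 members and 9.52% of all genes at an unadjusted p under 0.05 and 1 member, Zscan4c, by the exact test. The non-additive part, the double change minus both single changes, gave 0 members beside 0.753% of all genes, with 3 members (B020004J07Rik, Zfp352 and Zscan4f) and 12% of all genes at an unadjusted p under 0.05. The 3 comparisons with dsGFP share the same control libraries. The median difference over the 7 was -0.02 in Tfap2cKD, -0.20 in Tead4KD and 1.49 in DoubleKD embryos over dsGFP, beside 0.06, 0.05 and 0.05 over all genes tested. The DoubleKD median is the value of Zscan4f, and that value was 0.26 without DoubleKD B1. Without that library Zscan4d was at 0.87, Tcstv3 at 0.92 and Zfp352 at 1.06, and Zscan4c was not tested. Over the fits that left out 1 library, B020004J07Rik ran from 1.71 to 2.03 and Tcstv1 from 0.34 to 0.95. The median without DoubleKD B1 was not computed.

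**Figure D3:**
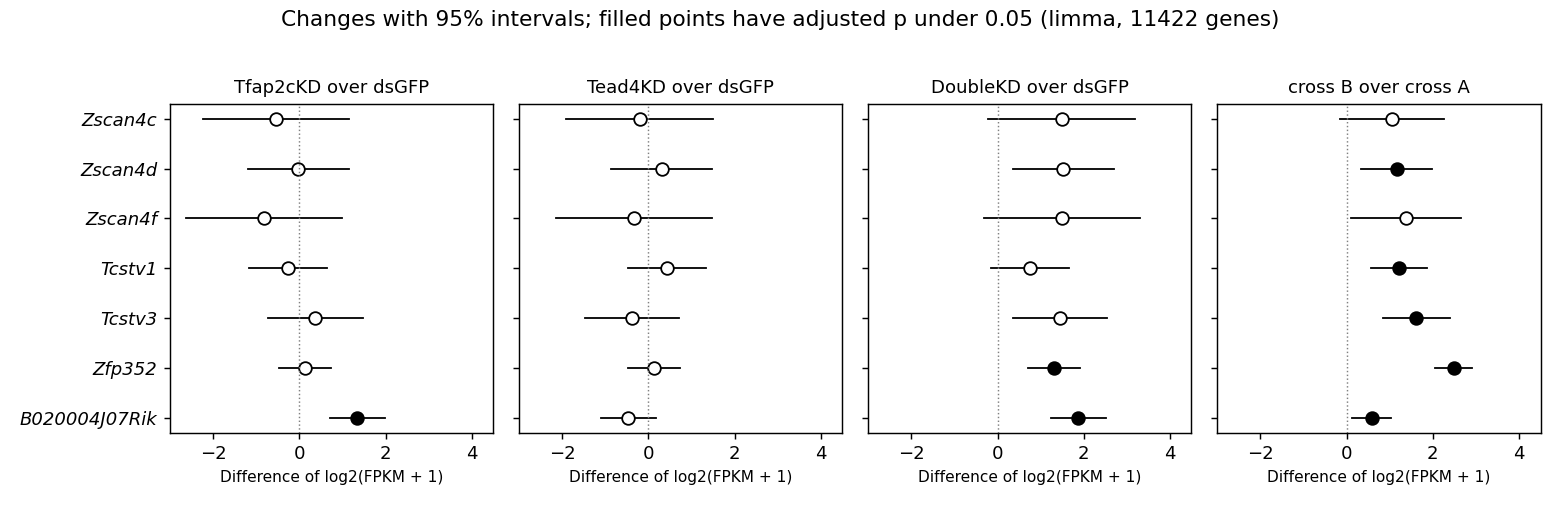
Difference of log2(FPKM + 1) for each member with its 95% interval from limma, in 3 knockdowns over dsGFP and in cross B over cross A. Filled points passed at an adjusted p under 0.05 over 11422 genes: B020004J07Rik in Tfap2cKD, Zfp352 and B020004J07Rik in DoubleKD, and 5 members in the comparison of crosses.

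Zfp352, Tcstv3 and Tcstv1 were called higher in embryos of cross B than in embryos of cross A in every fit tried over all injection groups. For Zscan4c and Zscan4d the filter has a part in the comparison. In that comparison, over all injection groups, 5 of 7 members were called higher and 0 lower, beside 33.5% of all genes called in both directions and 17.2% called higher. The median difference over the 7 was 1.22, beside 0.01 over all genes tested. Zscan4c and Zscan4d reached 1 FPKM in cross B libraries alone and were tested only through them, so neither this count nor the median supports a difference for these 2 genes. With no filter 3 members passed (Zfp352, Tcstv3 and Tcstv1), and in each of the other 6 settings 4 passed, B020004J07Rik being the one lost. What else was handled with a cross, besides the mothers, cannot be told apart from it.

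Zfp352 ranged from 7.90 to 36.0 FPKM in cross B with a median of 9.20, and from 0.274 to 4.29 in cross A with a median of 0.987 (n = 8 each). The difference was 2.49 ± 0.20 (95% interval 2.06 to 2.91, adjusted p = 2.03e-06), and the exact permutation p of 0.000155 is the smallest that 8 against 8 allow. It was 2.66 within Tfap2cKD, 2.48 within Tead4KD, 2.38 within DoubleKD and 2.42 within dsGFP embryos, each with an adjusted p of at most 0.00970. Of all genes tested, 6.53%, 7.44%, 4.82% and 4.64% were called higher in cross B within these groups.

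Tcstv3 ranged from 1.21 to 63.4 FPKM in cross B with a median of 10.7, and from 1.47 to 5.62 in cross A with a median of 2.24. It was higher in cross B by 1.61 ± 0.36 (adjusted p = 0.00359). Tcstv1 ranged from 1.18 to 13.3 FPKM in cross B with a median of 3.25, and from 0.212 to 3.20 in cross A with a median of 0.854, a difference of 1.22 ± 0.30 (adjusted p = 0.00648). Without DoubleKD B1 these were 1.35 (adjusted p = 0.00434) and 1.01 (adjusted p = 0.00966). Both genes overlap between crosses.

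Zscan4d was higher in cross B by 1.16 ± 0.39 (adjusted p = 0.0323), with 0.165 to 24.6 FPKM in cross B (median 1.44) and 0.169 to 0.837 in cross A (median 0.567). It entered the test through 5 libraries at 1 FPKM or more, all of cross B, and with no filter it did not pass (adjusted p = 0.0902). Leaving out any of DoubleKD A1, DoubleKD A2, DoubleKD B2, Tead4KD B2 or Tfap2cKD B2 ended that call, and leaving out DoubleKD B1 did not (0.83, adjusted p = 0.0399). B020004J07Rik passed narrowly, at 0.58 ± 0.21 (adjusted p = 0.0477), a call kept in 6 of 16 fits that left out a library and in 0 of 7 other settings. Its exact permutation p was 0.307. Its cross difference was 1.10 within Tfap2cKD and 1.33 within DoubleKD embryos, and -0.05 within Tead4KD and -0.06 within dsGFP embryos. Zscan4f, at 1.39 ± 0.60, and Zscan4c, at 1.05 ± 0.56, did not pass (adjusted p of 0.0891 and 0.166).

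Within DoubleKD embryos the cross difference was 3.28 ± 0.47 for Zscan4d (adjusted p = 0.00200), 3.82 ± 1.06 for Zscan4f (adjusted p = 0.0408) and 3.32 for Zscan4c (adjusted p = 0.0566). Zscan4c and Zscan4d reached 1 FPKM in cross B libraries alone, so these values do not support a difference between crosses for them. The Zscan4d call was kept in all 16 fits that left out a library and in all 8 other settings. These fits draw on the same libraries, so they add no support. Without DoubleKD B1, which leaves 1 DoubleKD library in cross B, the difference of Zscan4d was 2.53. The Zscan4f call was kept in 3 of those 16 fits and in 4 of the 8 settings, and without DoubleKD B1 the difference was 1.65 (adjusted p = 0.207). No Zscan4 gene passed in the other groups: the differences of Zscan4d were 0.73 in Tfap2cKD, 0.67 in Tead4KD and -0.04 in dsGFP embryos, and those of Zscan4f 0.25, 0.57 and 0.91. DoubleKD was not shown to differ from dsGFP in this, with contrasts of 3.32 for Zscan4d, given above, 2.92 ± 1.49 for Zscan4f and 2.76 ± 1.42 for Zscan4c (adjusted p of 0.118, 0.498 and 0.498).

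Several measures moved with cross and with knockdown beside these genes. Of 21 tested oocyte transcripts, 11 were lower in cross B and 0 higher with limma (12 and 0 at an unadjusted p under 0.05), beside 16.3% lower and 17.2% higher of all genes. Oosp1, an oocyte-secreted protein gene, differed by -1.67 ± 0.20, and Npm2, a nucleoplasmin of the egg, by -0.70 ± 0.12. The share of FPKM from mitochondrially encoded genes had a median of 8.09% in cross B and 10.2% in cross A. The summed blood markers, of which only Hba-a1 and Hba-a2 passed the filter, ran from 29.3 to 63.0 FPKM in Tfap2cKD, 20.3 to 50.9 in Tead4KD and 40.7 to 77.7 in DoubleKD embryos, against 9.86 to 26.8 in dsGFP embryos. In cross B that sum ran from 9.86 to 58.2 FPKM and in cross A from 23.7 to 77.7. Hba-a1 rose by 1.34 ± 0.26 in Tfap2cKD and 1.39 ± 0.26 in DoubleKD embryos, as B020004J07Rik did. It was lower in cross B by -0.66 ± 0.19, opposite to the members called between crosses. In Tead4KD embryos Hba-a1 averaged 19.9 ± 8.93 FPKM, against 12.4 ± 4.42 in dsGFP embryos, whereas B020004J07Rik was at -0.47 ± 0.30 over dsGFP. Uchl1, a deubiquitinase abundant in the oocyte, was higher by 2.14 ± 0.47 in Tfap2cKD and 2.29 ± 0.47 in DoubleKD embryos. It was lower in cross B by -1.96 ± 0.33. Of the 21 oocyte transcripts, 2 were higher and 1 lower in Tfap2cKD over dsGFP, beside 16.3% and 13.2% of all genes. The 1 lower was Padi6, at -0.73 ± 0.20. In Tead4KD over dsGFP 0 were higher and 0 lower (1 and 0 at an unadjusted p under 0.05), beside 3.35% and 2.78%. In DoubleKD over dsGFP 4 and 0 were, beside 13.9% and 11.3%. The sum of cumulus markers ran from 21.3 to 30.2 FPKM in Tfap2cKD, 14.0 to 24.6 in Tead4KD and 19.9 to 25.8 in DoubleKD embryos, against 11.2 to 22.4 in dsGFP embryos. Of the 10 markers of the 8-cell embryo, which include both targeted genes, 7 were lower and 1 higher in Tfap2cKD, 2 and 0 in Tead4KD and 6 and 1 in DoubleKD embryos over dsGFP, with median differences of -0.72, -0.02 and -0.86. Beside them, 13.2%, 2.78% and 11.3% of all genes were lower and 16.3%, 3.35% and 13.9% higher. Tdgf1, a Nodal co-receptor, averaged 10.5 ± 3.38 FPKM in Tfap2cKD and 15.6 ± 3.51 in DoubleKD embryos, against 81.5 ± 20.9 in dsGFP embryos, a difference of -2.86 ± 0.25 and -2.30 ± 0.25. Between crosses 3 of these markers were higher and 1 lower in cross B. The part of these measures in the results was not tested.

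The library DoubleKD B1 was examined across all genes. It was the highest of the 16 libraries for 6.22% of the 11422 genes, and by more than 2-fold on FPKM + 1 for 50 genes, or 0.438%. Among those 50 genes were 6 of the 7 members and 11 of the 49 tested genes on a list of other 2-cell transcripts. Of the 49, 26 had their highest value there. Of the 21 oocyte transcripts and the 10 markers of the 8-cell embryo, 0 did. Its relative depth, 1.12 of the mean, was the highest of the 16, and its mitochondrial share, 7.06%, the lowest. In it 10441 genes reached 1 FPKM, within the 10049 to 10504 of all libraries. The part of these measures in its values was not tested. In the library DoubleKD B2, the list had its highest value for 1 gene of 49, and in Tfap2cKD B1 for 10. The shares of all genes highest in these libraries are not given here, so nothing is read from those counts.

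**Figure D4:**
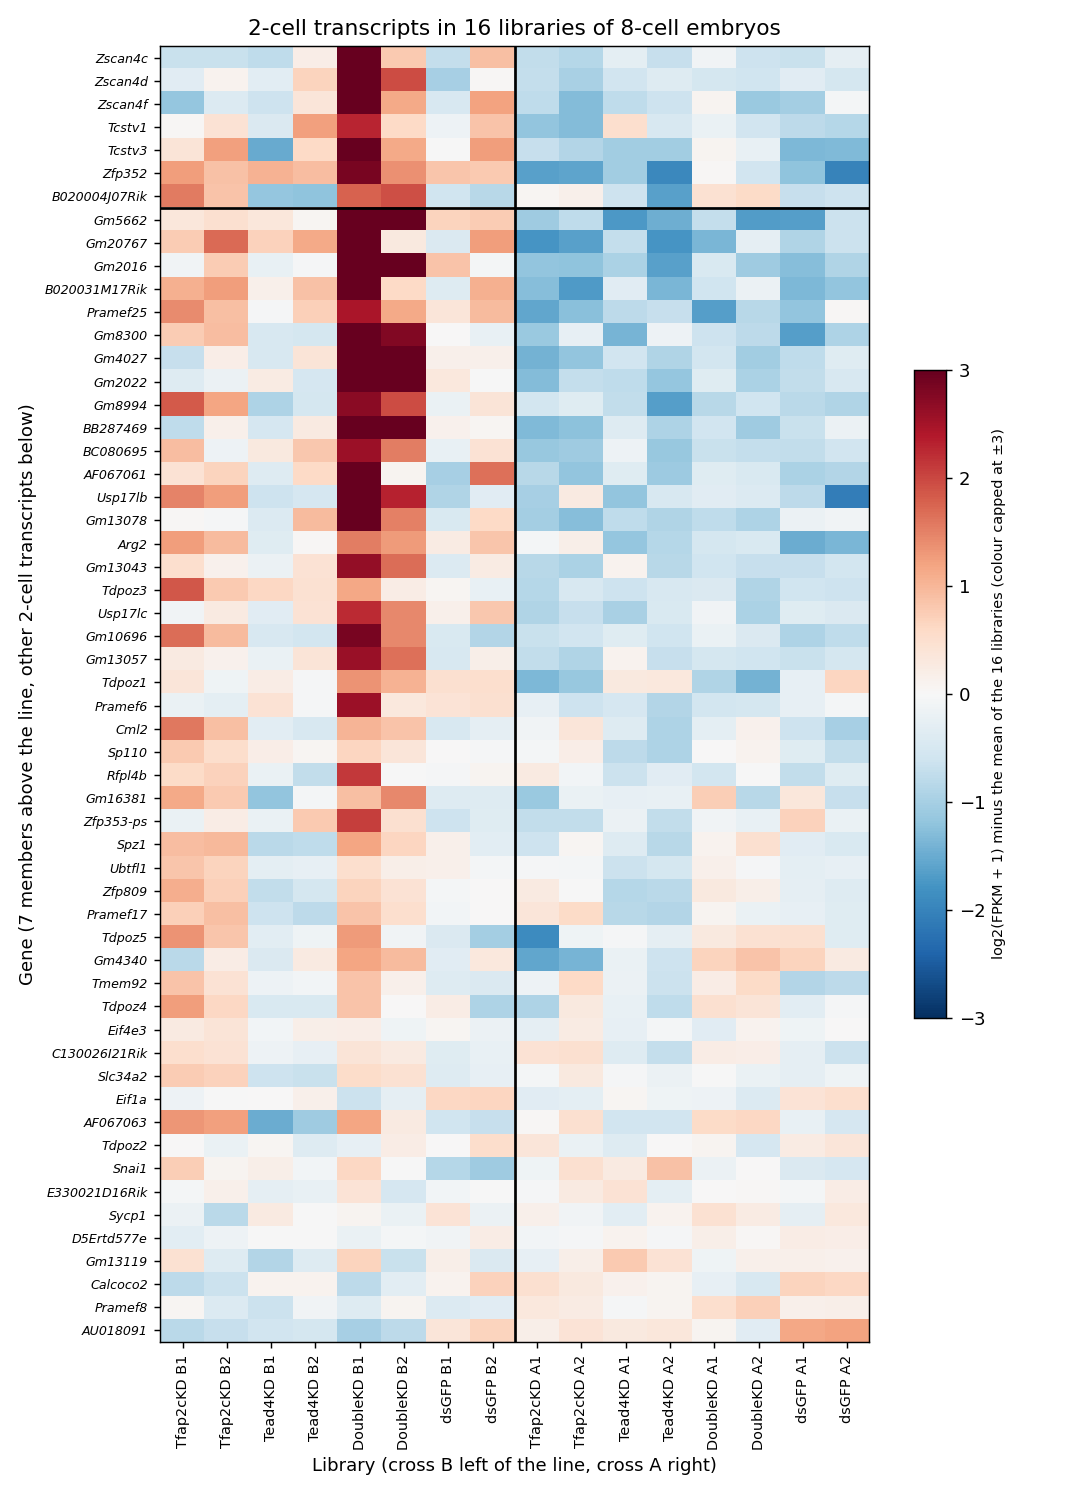
log2(FPKM + 1) minus the mean of the 16 libraries, for the 7 members above the line and 49 other 2-cell transcripts below it, ordered by their difference between crosses. Cross B libraries are left of the vertical line and cross A libraries right of it. DoubleKD B1 is the highest library for 6 of the 7 members and for 26 of the 49 other genes.

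The list of other 2-cell transcripts held 64 genes, of which 59 were in the table and 49 were tested. Between crosses, 28 of the 49 were higher and 3 lower in cross B (27 and 2 of 47 without DoubleKD B1), beside 17.2% higher and 16.3% lower of all genes. Tdpoz3, among the 28, reached 1 FPKM in cross B libraries alone. Their median difference was 0.61, beside 0.01 over all genes. Arg2, an arginase, averaged 36.1 ± 15.5 FPKM in cross B and 12.6 ± 5.76 in cross A (SD, n = 8 each), and Sp110 370.5 ± 81.0 and 241.6 ± 71.0, so both were higher in cross B. AU018091, a gene of the 2-cell embryo, went the other way, with 39.4 ± 19.6 FPKM in cross B and 69.4 ± 27.4 in cross A.

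In the knockdowns that list held rises and falls, and most of its calls in DoubleKD over dsGFP were rises. In Tfap2cKD over dsGFP 12 of 49 were higher and 5 lower, beside 16.3% and 13.2% of all genes. In Tead4KD over dsGFP 1 was higher and 4 lower, beside 3.35% and 2.78%. In DoubleKD over dsGFP 14 were higher and 3 lower (10 and 3 of 47 without DoubleKD B1), beside 13.9% and 11.3%. The median difference of the list was 0.07 in Tfap2cKD, -0.14 in Tead4KD and 0.70 in DoubleKD embryos over dsGFP. Over all genes it was 0.06, 0.05 and 0.05. The list's median without DoubleKD B1 is not given here. C130026I21Rik averaged 586.9 ± 12.7 FPKM in Tfap2cKD and 514.8 ± 28.1 in DoubleKD embryos, against 330.0 ± 40.7 in dsGFP embryos, and rose in both. Eif1a, which encodes a translation initiation factor, fell to 119.7 ± 12.4 FPKM in Tfap2cKD, 139.3 ± 11.4 in Tead4KD and 106.6 ± 15.5 in DoubleKD embryos, against 201.1 ± 15.7 in dsGFP embryos. AU018091 fell likewise in all 3, to 44.3 ± 18.5, 47.0 ± 16.2 and 35.3 ± 12.3 FPKM, against 91.0 ± 24.8 in dsGFP embryos. Gm4340 had the 1 non-additive part on the list that passed, at 2.28 ± 0.44 (adjusted p = 0.0334). It averaged 0.812 ± 1.13 FPKM in Tfap2cKD, 1.55 ± 0.717 in Tead4KD and 4.61 ± 0.815 in DoubleKD embryos, against 2.57 ± 0.984 in dsGFP embryos. Without DoubleKD B1, 0 of the 47 genes then tested passed with limma, while at an unadjusted p under 0.05 and with all libraries 11 of 49 were higher and 1 lower.

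Among known activators of these genes, Dux and Duxf3 were not analysed here. Dppa2 stood at 1006 to 1303 FPKM and Dppa4 at 432 to 575 over the 16 libraries, and neither passed in any knockdown over dsGFP. Of the 11 tested activators, 2 were higher and 3 lower in Tfap2cKD, 0 and 0 in Tead4KD and 2 and 2 in DoubleKD embryos over dsGFP, and 2 were higher and 2 lower in cross B. The shares of all genes were 16.3% higher and 13.2% lower in Tfap2cKD, 3.35% and 2.78% in Tead4KD, 13.9% and 11.3% in DoubleKD over dsGFP and 17.2% and 16.3% in cross B, so these counts are near the background. At limma's unadjusted p under 0.05, Tead4KD embryos had 0 higher and 1 lower. Obox3, a homeobox gene of the early mouse embryo, averaged 2.35 ± 2.02 FPKM in Tfap2cKD and 2.50 ± 1.74 in DoubleKD embryos, against 0.905 ± 0.729 in dsGFP embryos, and 2.59 ± 1.60 in cross B against 0.745 ± 0.398 in cross A. It rose in both knockdowns and was higher in cross B. Nr5a2, a nuclear receptor of the cleavage embryo, fell by 0.62 in Tfap2cKD embryos (adjusted p = 0.00117) and was higher in cross B by 0.43.

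Of 25 tested repressors, 6 were higher and 2 lower in Tfap2cKD, 3 and 2 in Tead4KD and 8 and 2 in DoubleKD embryos over dsGFP. Between crosses 3 were higher and 2 lower in cross B. Beside the shares of all genes just given, 6 and 2 of 25 are near those in Tfap2cKD, and nothing particular to the list is read from any of these counts. Pcgf6, a subunit of PRC1.6, averaged 32.8 ± 2.73 FPKM in Tfap2cKD, 26.0 ± 2.03 in Tead4KD and 28.8 ± 3.50 in DoubleKD embryos, against 18.4 ± 1.55 in dsGFP embryos, and rose in all 3. Kdm1a, a histone demethylase, rose to 18.5 ± 3.69 FPKM in Tfap2cKD and 19.7 ± 0.809 in DoubleKD embryos, against 11.7 ± 1.34 in dsGFP embryos. Smchd1, a chromatin protein known from X inactivation, rose to 15.3 ± 4.80 FPKM in Tfap2cKD and 18.2 ± 0.859 FPKM in DoubleKD embryos, against 8.56 ± 0.445 in dsGFP embryos. Atrx fell by 0.65 in Tfap2cKD embryos, and Lin28a by 0.86 in Tead4KD embryos.

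Members were compared with one another over libraries on the log2(FPKM + 1) scale. These libraries share crosses and injections, so the correlations are descriptions. Pearson's r between Zscan4c and Zscan4f was 0.98 over 16 libraries and 0.93 over 15 without DoubleKD B1, for 2 genes that share most of their sequence. Between Tcstv3 and Zfp352 it was 0.80 and 0.71. B020004J07Rik followed the Zscan4 genes least: its r with Zscan4f was 0.39 over 16 libraries and 0.03 over 15.

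By the highest Pearson's r over the 16 libraries, the gene most like Zscan4c was Gm21761 (r 0.94, Spearman's rho 0.79), that most like Zscan4d was Gm13078 (r 0.96, rho 0.88) and that most like Zscan4f was Gm13083 (r 0.92, rho 0.59). Without the 2 libraries farthest from the median these r were 0.55, 0.83 and 0.50. For Tcstv1 it was Gm21818 (r 0.93, rho 0.92) and for Tcstv3 Gm21762 (r 0.92, rho 0.79). For Zfp352 it was Daam1 (r 0.91, rho 0.84, and 0.90 without those 2 libraries), and for B020004J07Rik Gm8072 (r 0.91, rho 0.87, and 0.91). Over the 15 libraries without DoubleKD B1, the most similar gene stayed the same for none of the 7: it became, for example, Gm9044 for Zscan4d, Myo6 for Zscan4f, Lgals2 for Tcstv1, Obox3 for Tcstv3 (r 0.86), Ahsa2 for Zfp352 (r 0.92) and Top1 for B020004J07Rik (r 0.92).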

How the data were processed

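RNA-seq libraries of whole 8-cell embryos were compared, 4 a group and 16 in all. Per the labels' protocols, poly-A RNA was copied with SuperScript II in a Smart-seq2 protocol. Per the submitters' processing notes, CASAVA, Trim Galore, STAR and Cufflinks were used with the mm10 build. The authors deposited 1 table of FPKM values per gene. Read totals were not used here, so no counting intervals are given. Of its 43496 lines, 59 repeated an identifier and were summed, leaving 43437 genes, and 27 gene names that had turned into dates were restored.

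The deposited FPKM values were put on the log2(FPKM + 1) scale, which understates changes of low genes. Genes that reached 1 FPKM in 4 or more libraries were fitted with limma 3.58.1 (R 4.3.3), with group and cross as terms, and a second fit gave group within cross. P values were Benjamini-Hochberg adjusted over all genes of a comparison, with a threshold of 0.05. The procedure was tested on simulated data. Exact permutation tests, two-sided, compared the log2 values of single genes. Differences are log2, with their SE, unless said otherwise. The members and lists were chosen with earlier results of these data known. Named from each list were genes that passed, up to 3 a comparison by lowest p, and for each member the genes of highest correlation. Dppa2, Dppa4, Zscan4b, Zscan4e, markers given as levels and the similar genes over 15 libraries were named after their values were seen. Promoter windows and locations are from RefSeq on GRCm38.p6. Alternatives covered pseudocount, filter, scaling, covariates, trend, groups fitted and each library left out.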

Additional observations from a re-analysis of the deposited data

Results flagged for a closer look

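Of 42 pairs of a member and a group of 4 or 8 libraries, 13 had a highest library that stood apart from the others by Dixon's criterion on FPKM. The criterion assumes normally distributed values, which skewed FPKM are not, and the groups of 8 pool the injections. No chance rate is therefore set beside the 13. DoubleKD B1 accounted for 9 of them. Within DoubleKD it stood apart for Zscan4c (67.0 FPKM), Zscan4f (124.8 FPKM) and Tcstv3 (63.4 FPKM), and within cross B for the same 3 genes and for Zscan4d (24.6 FPKM), Tcstv1 (13.3 FPKM) and Zfp352 (36.0 FPKM). Tead4KD B2 stood apart within Tead4KD for Zscan4d (2.69 FPKM), Zscan4f (2.63 FPKM) and Tcstv3 (8.55 FPKM). Tead4KD A1 stood apart within cross A for Tcstv1 (3.20 FPKM). The members share libraries, so these are not independent observations.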

How the results depend on the processing

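With all libraries, the count of members called between crosses was 5 in the reported fit and 4 or 3 in all 7 other settings. Without the cross term, 1 member passed in DoubleKD over dsGFP and 1 in DoubleKD over Tead4KD. With no filter, 3 passed between crosses. With a pseudocount of 0.1, 3 passed in DoubleKD over dsGFP, and with no filter or 2 groups alone 2 passed in DoubleKD over Tead4KD. The other counts did not move. Leaving out 1 library at a time gave 0 to 1 members in DoubleKD over Tfap2cKD (Zfp352 without DoubleKD B2), 3 to 5 between crosses and 0 to 1 in the contrast of DoubleKD responses between crosses (Zscan4d without DoubleKD B2). Small differences that never passed turned sign: Zscan4d in Tfap2cKD over dsGFP was 0.0042 under quantile normalization. With 1 library left out, Zscan4d in that comparison ran from -0.43 to 0.23 and Zfp352 from -0.0071 to 0.29, and in Tead4KD over dsGFP Zscan4c ran from -0.58 to 0.13, Zscan4d from -0.10 to 0.57, Zscan4f from -0.72 to 0.0010, Tcstv3 from -0.58 to 0.19 and Zfp352 from -0.024 to 0.30. The cause of these changes was not tested. With the replicate number as a block, 4 members passed between crosses, and B020004J07Rik was the one lost (adjusted p = 0.0639). The numbers were not taken to pair libraries, since the lowest correlation of deviations for B2 was 0.03. Zscan4c fell under the filter without DoubleKD B1, DoubleKD B2, Tead4KD B2 or dsGFP B2 and then had no value. Of log2 changes of members outside the fits that left out a library, 313 were counted as unchanged, 13 lost a call, 1 gained one and 1 turned. Unchanged meant the same direction and side of the threshold. For sums over gene copies, which were not tested, it meant a difference that moved by less than the SD of the libraries. Low FPKM limits Zscan4c most.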
